A study of Homo sapiens with 6 samples.

Results

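The genes described here are 41 chaperone and protein quality control genes: 27 whose products work in or around the endoplasmic reticulum (ER), 11 of the cytosol and 3 of the mitochondrial matrix. They were taken by symbol from a fixed list, and all 41 were found among the 38126 gene IDs of the files. They were measured by RNA sequencing in HK-2, an immortalised line of human proximal tubule cells, with 3 libraries of cells exposed to phosphoramidon for 24 h and 3 libraries of untreated cells. Phosphoramidon blocks zinc-dependent peptidases, among them neprilysin and the endothelin-converting enzymes. Both groups were kept in a serum-free keratinocyte medium with bovine pituitary extract and EGF, were seeded a day earlier and were used near confluence. The labels give no dose and name no vehicle, and the titles of the untreated libraries carry the letters CSE, which they do not explain. HK-2 is 1 cell line. No label says that the 3 libraries of a group came from separate cultures, and the p-values then reflect library-to-library spread that may be technical only.

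Secretory proteins enter the ER through the SEC61 channel, receive their glycans from the oligosaccharyltransferase and fold with the help of the HSP70 protein BiP (HSPA5), the HSP90 protein GRP94 (HSP90B1), the lectins calnexin and calreticulin, and the protein disulfide isomerases. Proteins that fail to fold are sent back to the cytosol and degraded, a process called ER-associated degradation (ERAD). When unfolded proteins build up, the sensors IRE1, PERK and ATF6 start the unfolded protein response (UPR), which raises transcription of ER chaperones and ERAD genes through XBP1 and ATF6. In the cytosol, the factor HSF1 raises the heat-inducible HSP70 and HSP90 genes in a separate heat shock response, and mitochondria hold their own HSP70 (HSPA9) and the HSPD1 and HSPE1 chaperonin.

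Levels are given as scaled FPKM: the deposited FPKM (fragments per unit of gene length and of library size) divided by a factor for each library. Levels per length can be compared between genes only roughly, since some members share sequence or exon bases with other genes. The factors were 1.02 to 1.05 in the phosphoramidon libraries and 0.956 to 0.987 in the untreated libraries, a ratio between the groups of 1.0631 or 0.0883 on the log2 scale. Assigned fragments ranged from 18690100 to 24919568 in the phosphoramidon libraries and from 23493828 to 24815378 in the untreated ones. Members drew between 163 and 74984 fragments in a library. Both kinds of count were recovered from FPKM and gene length. For many members, SDF2L1 with the lowest count among them, that length was itself searched. Of 10 proximal tubule markers, 9 stayed below 1 scaled FPKM in every library, with SLC22A6 and SLC22A8 at 0, and the exception, GGT1, averaged 0.512 under phosphoramidon and 0.857 in untreated cells. Most markers of the labelled proximal tubule identity were thus near 0. Of 7 renal epithelial markers, PAX2 and CDH1 also stayed below 1, while PAX8 (68.4 under phosphoramidon, against 65.7 in untreated cells) and EPCAM (25.7 against 27.7) were present and not called. The keratins KRT19 (91.4 against 209, log2 fold change -1.19), KRT8 (-0.59) and KRT18 (-0.54) fell. That list summed to 258 to 280 scaled FPKM under phosphoramidon and 403 to 450 in untreated cells, and its part in the members' results was not tested. Endothelial and leukocyte marker lists summed to at most 0.977 in any library.

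A gene is called here when its Benjamini-Hochberg adjusted p, from a limma model fitted over all 16175 genes tested, was below 0.05. All 41 members were tested, and 21 were called (51.2%), against 33.4% of all tested genes. Of these, 11 were higher in phosphoramidon-treated cells (14.1% of all tested genes were) and 10 were lower (19.3% of all tested genes were). The share over all tested genes includes low genes, which are called less often. With a stricter filter of 50 fragments, which all 41 members passed, 44.9% of 12406 genes and the same 21 members were called. The members' median log2 fold change was -0.02, beside -0.01 over all tested genes. With the values left as deposited, 15 members were higher and 8 lower, and 62.7% of all called genes were higher in place of 42.3%. The libraries of the 2 groups did not overlap for 24 members, which is also true of 47.9% of all tested genes. In bulk RNA, fewer cells expressing a gene and less RNA per cell cannot be told apart.

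The changes were modest. Among called members the median absolute log2 fold change was 0.31, beside 0.38 among all called genes. Only HSPA1B, HSPA4L and SERPINH1 changed by more than 1.5-fold, which is 3 of 21 called members (14.3%), against 24.3% of all called genes. The members are mostly abundant: in untreated cells the lowest, CRELD2, lay at the 58.5th percentile of tested genes and the highest, HSP90AB1, at the 99.8th. Together they made up 1.62% to 1.65% of all deposited FPKM under phosphoramidon and 1.52% to 1.63% in untreated cells.

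**Figure D1:**
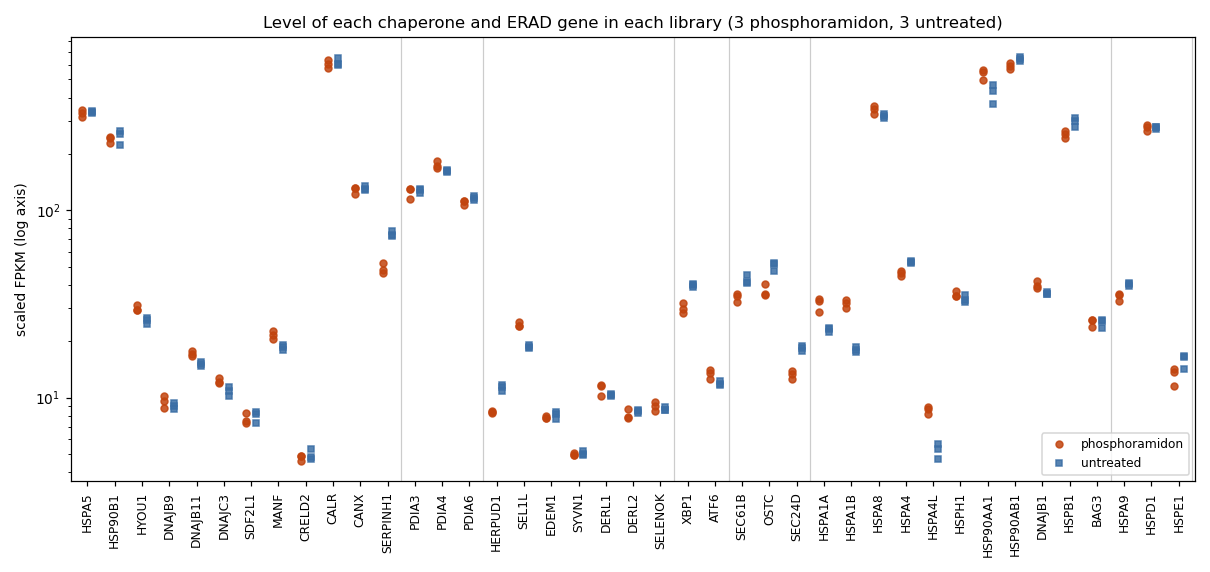
Level of each of the 41 genes in each library, in scaled FPKM on a log axis; circles are the 3 phosphoramidon libraries and squares the 3 untreated libraries, and vertical lines part the role groups. HSPA5 lies between 316 and 344 in all 6 libraries, while SERPINH1, HERPUD1, XBP1 and the ER entry and export genes sit lower, and SEL1L, HSPA1A, HSPA1B and HSPA4L higher, under phosphoramidon.

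**Figure D2:**
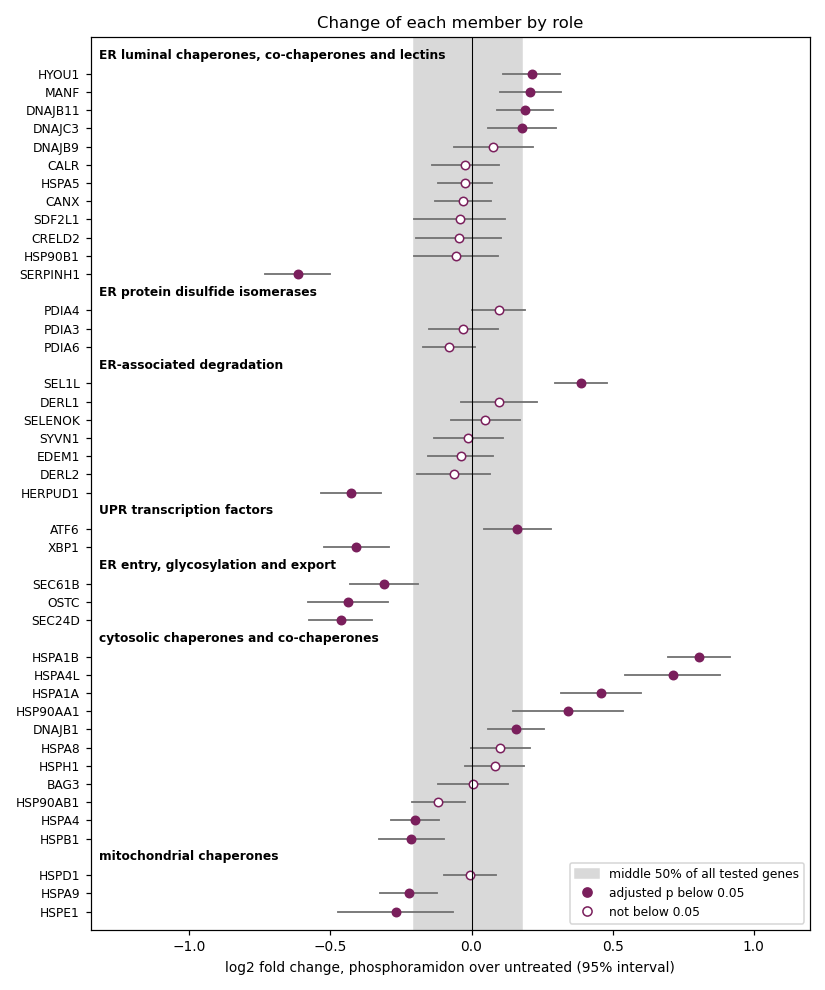
Log2 fold change, phosphoramidon over untreated, of each member with its 95% interval, ordered within each role group; filled circles are called genes, open circles are not, and the grey band spans the range from the 25th to the 75th percentile of all tested genes, from -0.20 to 0.18. HSPA1B (0.81) and SERPINH1 (-0.62) lie at the ends, and 5 of the 12 luminal chaperones are called, beside 33.4% of all tested genes.

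Most of the major ER lumen chaperones did not pass the test. BiP, encoded by HSPA5 (chr9:125234853-125241330, minus strand, GRCh38), the HSP70 of the ER and a standard readout of the UPR, had 344, 329 and 316 scaled FPKM in phosphoramidon libraries 1 to 3, against 341, 333 and 331 in untreated libraries 1 to 3. The groups overlapped, the log2 fold change was -0.02 with a 95% interval from -0.12 to 0.07 (adjusted p = 0.70), and its sign turned to 0.06 with values as deposited. GRP94, encoded by HSP90B1 (chr12:103930107-103953645, plus strand), had 228, 246.4 and 244 scaled FPKM under phosphoramidon, against 224, 256 and 266 in untreated cells. Here too the libraries overlapped (log2 fold change -0.05, interval -0.20 to 0.10, adjusted p = 0.57). Calreticulin, encoded by CALR, was the most abundant ER member, with 605 ± 29.4 scaled FPKM under phosphoramidon and 614 ± 30.1 in untreated cells (SD, n = 3 each), and calnexin, encoded by CANX, had 128 ± 5.77 and 131 ± 3.28. Neither passed the test, nor did DNAJB9, SDF2L1 or CRELD2, whose log2 fold changes lay between -0.05 and 0.08.

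Around that core, 4 partners of BiP or small folding factors were higher by about the same amount. HYOU1, also called GRP170, which exchanges nucleotide on BiP, had 31.0, 29.3 and 29.3 scaled FPKM under phosphoramidon, against 26.6, 25.8 and 24.7 in untreated cells. All 3 treated libraries lay above all 3 untreated ones (log2 fold change 0.21 ± 0.04 SE, adjusted p = 0.0066). DNAJB11, an ER J-domain co-chaperone of BiP, had 17.2, 17.7 and 16.7 scaled FPKM, against 15.4, 15.1 and 14.7 in untreated cells, again without overlap (0.19 ± 0.04, adjusted p = 0.010). MANF, a small secreted ER protein that binds BiP, had 22.6, 21.5 and 20.5 scaled FPKM, against 18.7, 18.05 and 19.1 in untreated cells. Its groups were apart as well (0.21 ± 0.05, adjusted p = 0.010). DNAJC3, also called p58IPK, another J-domain protein of the ER, had 11.9, 12.1 and 12.7 scaled FPKM, against 10.2, 11.4 and 10.8 in untreated cells (0.18 ± 0.05, adjusted p = 0.032). The gap between its groups was narrow, and DNAJC3 missed the threshold when phosphoramidon replicate 2 (adjusted p = 0.068) or 3 (0.096), or untreated replicate 1 (0.096) or 3 (0.066), was left out, and with no filter on low genes (0.094). Within a library, HYOU1 stood at 0.0906 ± 0.00183 of HSPA5 under phosphoramidon and 0.0768 ± 0.00177 in untreated cells, a ratio that scaling between libraries does not touch.

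SERPINH1, also called HSP47, the chaperone of procollagen in the ER (chr11:75562056-75572783, plus strand), fell most of all 41 members. It had 52.3, 48.1 and 46.4 scaled FPKM under phosphoramidon, against 77.5, 74.2 and 73.2 in untreated cells. Every treated library lay far below every untreated one, with a log2 fold change of -0.62 ± 0.05 (0.653 of the untreated level, adjusted p = 6.7e-05). The call held in every alternative run. FKBP10, an ER prolyl isomerase that acts on procollagen and is not a member, also fell: it averaged 36.7 ± 1.6003 scaled FPKM under phosphoramidon and 61.998 ± 1.11 in untreated cells (log2 fold change -0.75, adjusted p = 1.1e-05). The fibroblast marker list moved in the same direction. The 5 genes of that list summed to 19.2 to 20.2 scaled FPKM under phosphoramidon and 53.2 to 58.2 in untreated cells, nearly all of it LUM (19.3 ± 0.489 against 54.7 ± 2.57). The other 4 of these markers, COL1A2, PDGFRA, PDGFRB and DCN, stayed below 1 in every library, and the part of this list in the SERPINH1 result was not tested.

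None of the 3 protein disulfide isomerases, which form and rearrange disulfide bonds, was called. PDIA4 averaged 174 ± 7.55 scaled FPKM under phosphoramidon and 163 ± 2.15 in untreated cells (SD, n = 3 each), PDIA6 averaged 110 ± 3.64 and 116 ± 2.87, and PDIA3, the partner of calnexin and calreticulin, averaged 125 ± 8.57 and 127 ± 3.21. Libraries did not overlap for PDIA4 (log2 fold change 0.10, adjusted p = 0.10) or PDIA6 (-0.08, adjusted p = 0.16), and overlapped for PDIA3 (-0.03, adjusted p = 0.72). Before adjustment 1 of the 3, PDIA4, was below 0.05 in limma, and voom called none. PDIA4 passed the test only with values as deposited (0.19, adjusted p = 0.0037). Antisense neighbours overlap 25.2% of the exon bases of PDIA6 and 18.9% of those of PDIA3, but they were low. ATP6V1C2, beside PDIA6, averaged 0.474 FPKM as deposited over the 6 libraries, and CATSPER2P1, the highest beside PDIA3, averaged 0.146. Some members of other roles had higher antisense neighbours by that measure. These were TBCCD1 (4.745) beside DNAJB11 (16.17), PNPLA8 (9.93) beside DNAJB9 (9.29) and MIS12 (8.232) beside DERL2 (8.3), among others. The strand setting is not known, and the effect of such overlaps was not tested.

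Of the 7 ERAD members, 1 was called higher, 1 was called lower and 5 were not called. The share called was 28.6%, beside 33.4% of all tested genes, or 44.9% with the stricter filter. SEL1L is the adaptor that holds the HRD1 ubiquitin ligase complex together. It had 24.2, 25.2 and 24.1 scaled FPKM in phosphoramidon libraries 1 to 3, against 18.3, 19.1 and 18.7 in untreated libraries. It rose in all 3 treated libraries above all 3 untreated ones (log2 fold change 0.39 ± 0.04, adjusted p = 2e-04). HERPUD1, an ER membrane protein of the same complex and a well-known UPR target, had 8.36, 8.49 and 8.29 scaled FPKM, against 11.4, 10.9 and 11.7 in untreated cells. It fell without overlap (-0.43 ± 0.05, adjusted p = 0.00024). The ratio of SEL1L to HERPUD1 was thus 2.89, 2.97 and 2.90 under phosphoramidon and 1.61, 1.76 and 1.601 in untreated cells. SYVN1, the HRD1 ligase itself, averaged 4.99 ± 0.0828 scaled FPKM under phosphoramidon and 5.03 ± 0.123 in untreated cells, and was not called. Genes on its own strand overlap 8.4% of its exon bases, among them FAU at a mean of 41.8 deposited FPKM over the 6 libraries. The level of SYVN1 is therefore uncertain. The other 4 ERAD members also missed the test: EDEM1, which draws mannose-trimmed proteins out of folding, the derlins DERL1 and DERL2, and the selenoprotein SELENOK had log2 fold changes between -0.06 and 0.10. DERL1 passed only without phosphoramidon replicate 3 (adjusted p = 0.045) or with values as deposited (0.027).

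The 2 transcription factors of the UPR moved in opposite directions. XBP1 (chr22:28794555-28800597, minus strand) had 32.0, 29.8 and 28.1 scaled FPKM under phosphoramidon, against 39.1, 39.8 and 40.4 in untreated cells. It fell in every treated library (log2 fold change -0.41 ± 0.05, adjusted p = 5e-04), and gene-level values do not separate its spliced, active form from the unspliced one. ATF6 had 13.5, 14.0 and 12.5 scaled FPKM, against 11.8, 11.6 and 12.2 in untreated cells. The groups did not overlap and the gene was called higher (0.16 ± 0.05, adjusted p = 0.041), but with little margin. ATF6 missed the threshold when phosphoramidon replicate 1 (adjusted p = 0.097) or 2 (0.14), or any untreated replicate (0.092, 0.12 and 0.055), was left out, and with no filter on low genes (0.11). As a ratio within a library, XBP1 stood at 2.38, 2.13 and 2.25 times ATF6 under phosphoramidon and at 3.30, 3.43 and 3.31 times in untreated cells.

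All 3 members of ER entry, glycosylation and export fell, beside 19.3% of all tested genes that were called lower. SEC61B, a small subunit of the translocation channel, had 35.8, 32.3 and 34.7 scaled FPKM under phosphoramidon, against 45.1, 41.6 and 40.9 in untreated cells (log2 fold change -0.31 ± 0.05, adjusted p = 0.0026). OSTC, a subunit of the oligosaccharyltransferase, had 40.6, 35.9 and 35.4 scaled FPKM, against 51.7, 47.3 and 52.6 in untreated cells (-0.44 ± 0.06, adjusted p = 0.001). SEC24D, a cargo-binding subunit of the COPII coat that buds vesicles from the ER, had 13.8, 13.3 and 12.6 scaled FPKM, against 18.8, 17.7 and 18.4 in untreated cells (-0.46 ± 0.05, adjusted p = 0.00021). In none of the 3 did the groups overlap, and all stayed called in every alternative run.

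The sequences upstream of the members were read for elements known from the UPR. RefSeq promoter windows (GRCh38.p14), from 250 bases before to 50 after a gene's start, were on hand for 38 of the 41 members. They were searched on both strands for the ER stress element (CCAAT, any 9 bases, then CCACG), which the ATF6 factor binds with NF-Y, and for the related ERSE-II (ATTGG, any 1 base, then CCACG). An exact ER stress element was found in 7 of 38 members (18.4%) and in 0.0916% of 27305 genes, and an exact ERSE-II in 3 of 38 (7.89%) and in 0.0696% of genes. The UPR element core TGACGTGG occurred only in HYOU1 among the members (2.63%, against 0.927% of genes), where it overlaps an ERSE-II. The matches are printed with 10 bases on either side, 5′ to 3′ on the strand of the gene, with the match in capitals, so that called and uncalled genes can be compared. HSP90B1 and HYOU1 have 2 sites each.
HSPA5: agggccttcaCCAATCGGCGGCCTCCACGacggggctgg
HSP90B1 site 1: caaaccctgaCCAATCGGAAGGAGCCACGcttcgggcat
HSP90B1 site 2: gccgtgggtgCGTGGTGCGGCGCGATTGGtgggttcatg
CALR: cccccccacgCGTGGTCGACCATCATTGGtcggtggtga
CANX: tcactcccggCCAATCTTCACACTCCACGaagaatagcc
CRELD2: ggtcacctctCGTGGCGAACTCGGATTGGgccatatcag
PDIA6: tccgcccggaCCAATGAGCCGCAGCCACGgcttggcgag
XBP1: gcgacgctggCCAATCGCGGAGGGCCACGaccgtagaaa
HYOU1 site 1: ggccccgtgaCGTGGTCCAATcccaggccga
HYOU1 site 2: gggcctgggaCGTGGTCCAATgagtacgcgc
SDF2L1: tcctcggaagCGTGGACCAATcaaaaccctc
HERPUD1: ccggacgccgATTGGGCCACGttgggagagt

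The HSPA5 stretch lies at chr9:125241381-125241419 (minus strand), the XBP1 stretch at chr22:28800593-28800631 (minus strand) and the HERPUD1 stretch at chr16:56932015-56932045 (plus strand), all upstream of the RefSeq start. The 10 genes that hold either element did not move together. HYOU1 was higher, XBP1 and HERPUD1 were lower, and the other 7, HSPA5 and HSP90B1 among them, were not called. The ER stress element itself stood upstream of XBP1 and of 6 genes that were not called, and upstream of no gene called higher. ERSE-II stood upstream of HYOU1, HERPUD1 and SDF2L1, which was not called. The other members with a window, among them DNAJB11, MANF, DNAJC3 and SEL1L, held no exact match to either. A match is a description of letters and does not show that a factor was bound. Inexact elements and those outside the windows were not searched, so a missing match does not show that a gene lacks them.

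In the cytosol, 5 of 11 members were higher and 2 were lower, beside 14.1% and 19.3% of all tested genes. The median of the 11 was 0.10 on the log2 scale. HSPA1B rose most, followed by HSPA4L and HSPA1A. HSPA1B, of the heat-inducible HSP70 pair (chr6:31827735-31830255, plus strand) had 32.0, 29.9 and 33.0 scaled FPKM in phosphoramidon libraries 1 to 3, against 17.6, 18.6 and 17.9 in untreated libraries. That is the largest rise of all 41 members, with no overlap (log2 fold change 0.81 ± 0.05, 1.75-fold, adjusted p = 1.5e-05). HSPA1A (chr6:31815464-31817946, plus strand), its neighbour with a nearly identical coding sequence, had 32.9, 33.5 and 28.6 scaled FPKM, against 23.1, 23.5 and 22.3 in untreated cells (0.46 ± 0.06, adjusted p = 0.00077). The split between them is uncertain, since 67.3% of the 100-base windows of HSPA1A also occur in HSPA1B. Summed, the pair had 64.9, 63.4 and 61.6 scaled FPKM under phosphoramidon, against 40.7, 42.1 and 40.2 in untreated cells. The sum does not depend on that split, and it was 1.54-fold higher (log2 fold change 0.63 ± 0.04, adjusted p = 1.9e-05). How reads that fit both genes were counted is not known here, and the sum lacks any that were dropped. On the same strand, 1 other gene overlaps 36.5% of the exon bases of HSPA1B. Relative to HSPA8, the constitutive HSP70, the summed pair stood at 0.181 to 0.190 under phosphoramidon and at 0.123 to 0.135 in untreated cells.

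The RefSeq starts of the 2 genes lie 12195 bases apart. A chosen stretch of 148 bases upstream of each differs at 8 positions (94.6% identical), and the rest of the windows was not compared. The stretches are shown because both genes rose and their reads cannot be fully parted. Capitals mark the bases that differ. The stretches are chr6:31815391-31815538 for HSPA1A and chr6:31827587-31827734 for HSPA1B, both on the plus strand of GRCh38.p14. The RefSeq start of HSPA1A lies downstream of the GENCODE 29 gene start given above, so part of its stretch falls inside that gene.
HSPA1A: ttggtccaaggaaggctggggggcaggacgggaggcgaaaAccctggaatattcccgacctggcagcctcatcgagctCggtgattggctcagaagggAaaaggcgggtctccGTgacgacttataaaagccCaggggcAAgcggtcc
HSPA1B: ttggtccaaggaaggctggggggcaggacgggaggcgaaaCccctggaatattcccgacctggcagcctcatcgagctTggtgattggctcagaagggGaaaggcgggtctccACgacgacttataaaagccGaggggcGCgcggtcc

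HSPA8 itself, which folds and sorts proteins in unstressed cells, had 359, 348 and 325 scaled FPKM under phosphoramidon, against 320, 312 and 328 in untreated cells. The groups overlapped and it was not called (log2 fold change 0.10, interval -0.0032 to 0.21, adjusted p = 0.12), although it passed without phosphoramidon replicate 3 (adjusted p = 0.043), with voom (0.039) and with values as deposited (0.0052). HSPA4L and HSPA4, relatives of HSP110 that exchange nucleotide on HSP70, went opposite ways. HSPA4L had 8.17, 8.95 and 8.70 scaled FPKM, against 4.71, 5.67 and 5.29 in untreated cells, a 1.64-fold rise without overlap (0.71 ± 0.07, adjusted p = 2e-04). The more abundant HSPA4 had 46.0, 47.5 and 44.7 scaled FPKM, against 53.0, 52.5 and 53.3 in untreated cells (-0.20 ± 0.04, adjusted p = 0.0039). HSPA4L thus stood at 0.187 ± 0.00854 of HSPA4 under phosphoramidon and 0.0987 ± 0.00953 in untreated cells. HSPH1, the third gene of that family, was not called (0.08, adjusted p = 0.21), except with values as deposited (0.17, adjusted p = 0.027).

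The cytosolic HSP90 pair also parted. HSP90AA1, the stress-inducible HSP90 (chr14:102080738-102139699, minus strand), had 496, 560 and 550 scaled FPKM under phosphoramidon, against 372, 435 and 464 in untreated cells. Library 1 was the lowest in each group, yet the highest untreated library stayed below the lowest treated one (log2 fold change 0.34 ± 0.08, adjusted p = 0.016). It missed the threshold when phosphoramidon replicate 2 (adjusted p = 0.055) or 3 (0.051) was left out, with voom (0.058) and with no filter on low genes (0.069). HSP90AB1, the constitutive form, had 611, 592 and 571 scaled FPKM, against 655, 629 and 641 in untreated cells, without overlap. It missed the threshold (-0.12 ± 0.04, adjusted p = 0.059) and was called lower without phosphoramidon replicate 1 (adjusted p = 0.046) and with voom (0.012). The ratio of HSP90AA1 to HSP90AB1 was 0.811, 0.946 and 0.962 under phosphoramidon and 0.567, 0.692 and 0.724 in untreated cells, so it was higher in each treated library than in any untreated one.

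Of the small and co-chaperones, DNAJB1, the main heat-inducible J-domain partner of HSP70, averaged 40.1 ± 1.85 scaled FPKM under phosphoramidon and 35.9 ± 0.642 in untreated cells (log2 fold change 0.16 ± 0.04, adjusted p = 0.024). It missed the threshold when phosphoramidon replicate 1 (adjusted p = 0.073), or untreated replicate 2 (0.069) or 3 (0.064), was left out, and with no filter on low genes (0.065). HSPB1, also called HSP27, a small heat shock protein, had 254, 265 and 244 scaled FPKM under phosphoramidon, against 310, 298 and 277 in untreated cells. It was lower without overlap (-0.21 ± 0.05, adjusted p = 0.013), but not with values as deposited (-0.12, adjusted p = 0.064). BAG3, a heat-inducible co-chaperone that links HSP70 to autophagy, averaged 25.1 ± 1.17 scaled FPKM under phosphoramidon and 25.1 ± 1.41 in untreated cells (log2 fold change 0.00, interval -0.12 to 0.13, adjusted p = 0.97).

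The heat shock element, the binding motif of HSF1, was searched as 3 exact units with any 2 bases between them, in either phase (GAA, TTC, GAA or TTC, GAA, TTC). It was found in 5 of the 38 members with a window (13.2%) and in 0.608% of 27305 genes. Its matches are printed as above, from 1 RefSeq start where a gene has several. HSP90AB1 and HSPA8 have 2 each, and HSPD1 holds a pair of overlapping matches at the edge of its window.
HSP90AA1: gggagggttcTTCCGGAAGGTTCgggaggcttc
HSP90AB1 site 1: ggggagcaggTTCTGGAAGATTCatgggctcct
HSP90AB1 site 2: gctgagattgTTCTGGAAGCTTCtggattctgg
HSPA8 site 1: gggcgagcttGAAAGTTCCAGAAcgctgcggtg
HSPA8 site 2: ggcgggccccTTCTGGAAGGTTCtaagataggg
HSPD1: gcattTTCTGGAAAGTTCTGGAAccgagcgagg
SERPINH1: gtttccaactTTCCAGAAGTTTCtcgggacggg

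Of these 5 genes, HSP90AA1 was higher, SERPINH1 was lower, and HSP90AB1, HSPA8 and HSPD1 were not called. The HSPA1A and HSPA1B windows hold no match to these exact letters, which says nothing on whether HSF1 binds there.

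In the mitochondrial matrix, 2 of the 3 chaperones were lower and none was higher, beside 19.3% and 14.1% of all tested genes. HSPA9, the mitochondrial HSP70 that also pulls proteins through the import channel, had 35.8, 35.1 and 32.8 scaled FPKM under phosphoramidon, against 41.03, 39.4 and 40.5 in untreated cells. Its groups were apart (log2 fold change -0.22 ± 0.04, adjusted p = 0.0051). HSPD1, also called HSP60, the barrel of the chaperonin, had 277, 284 and 264 scaled FPKM, against 272, 278 and 278 in untreated cells, and these overlapped (-0.01, interval -0.10 to 0.09, adjusted p = 0.92). HSPE1, also called HSP10, its lid, had 13.7, 11.6 and 14.1 scaled FPKM, against 14.3, 16.5 and 16.7 in untreated cells. The groups all but touched, and the call was marginal (-0.27 ± 0.09, adjusted p = 0.047). HSPE1 missed the threshold when phosphoramidon replicate 1 (adjusted p = 0.065) or 2 (0.12), or untreated replicate 2 (0.13) or 3 (0.13), was left out. It also did so with values as deposited (0.18), median-of-ratios factors (0.055) and no filter on low genes (0.17). HSPD1 and HSPE1 are divergent neighbours on chromosome 2, with starts 105 and 539 bases apart for the 2 RefSeq starts of HSPD1. Their ratio, 20.3, 24.6 and 18.7 under phosphoramidon and 19.1, 16.9 and 16.7 in untreated cells, overlapped between groups. On the other strand, 14.2% of the exon bases of HSPE1 overlap HSPD1. Over the 6 libraries HSPD1 averaged 276 deposited FPKM and HSPE1 14.45. HSPE1-MOB4, at 0.052, overlaps 9.7% of them on the same strand. The strand setting is not known, so the level of HSPE1, its call and this ratio are uncertain.

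**Figure D3:**
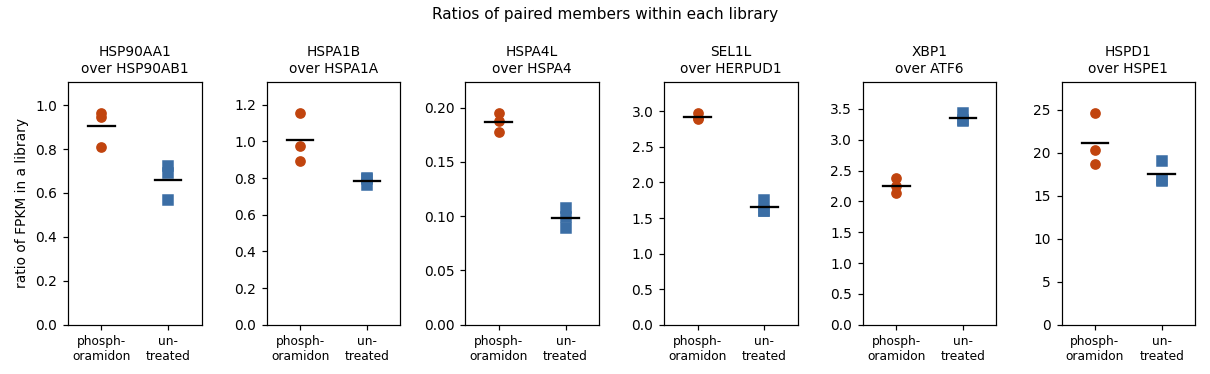
Ratio of the FPKM of paired members within each library, with phosphoramidon on the left (circles) and untreated on the right (squares) of each panel and a bar at the mean of 3 libraries; each axis starts at 0. The first 5 ratios are apart between the groups, with HSPA4L over HSPA4 at a mean of 0.187 against 0.0987, and HSPD1 over HSPE1 overlaps. HSPA1B over HSPA1A is uncertain because these genes share much sequence, and HSPD1 over HSPE1 because their exons overlap on opposite strands.

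The ratios were chosen after the values had been seen and are descriptions. Summed levels were also compared by compartment. The 27 ER genes summed to 2065 ± 71.9 scaled FPKM under phosphoramidon and 2136 ± 32.4 in untreated cells, the 11 cytosolic genes to 1944 ± 41.5 and 1874 ± 27.0, and the 3 mitochondrial genes to 323 ± 10.8 and 332 ± 4.32 (SD, n = 3 each). Such sums follow the most abundant genes (CALR, HSPA5, HSP90AB1, HSP90AA1), and the groups overlapped for all 3 sums. Summed by role, ER entry, glycosylation and export had the lowest ratio between groups, 0.762, at 84.8 ± 4.69 under phosphoramidon and 111 ± 4.48 in untreated cells.

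**Figure D4:**
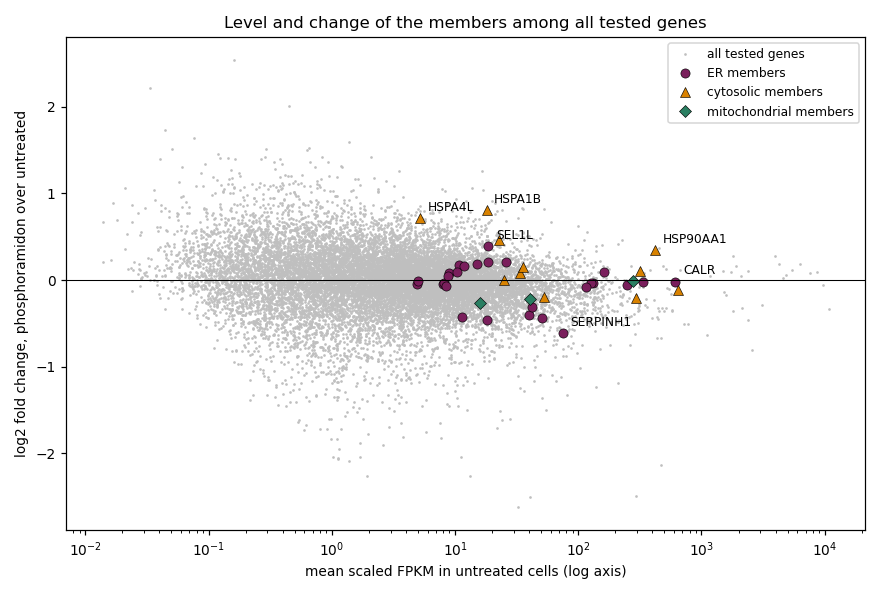
Mean scaled FPKM in untreated cells (log axis) against log2 fold change, phosphoramidon over untreated, for all 16175 tested genes (grey) and the members by compartment. HSP90AA1 (0.34) and HSPB1 (-0.21) are the called members furthest right, and HSPA4L and HSPA1B lie highest among the members.

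Genes around the members were followed in 8 lists of the same pathways, chosen with earlier results of these data known. Each count is read against the 33.4% of all tested genes that were called (14.1% higher and 19.3% lower), or 44.9% with the stricter filter. The share called was 64.7% in the UPR sensor list and 73.7% in the COPII and retrieval list. In the other lists it was 29.6% to 47.6%, near the shares over all tested genes. Of 17 UPR sensors, proteases and PERK arm genes, 1 was higher and 10 were lower (with values as deposited, 3 and 4), with a median of -0.18. ATF4, the factor translated when PERK is active, averaged 84.7 ± 2.93 scaled FPKM under phosphoramidon and 122 ± 2.80 in untreated cells (log2 fold change -0.53, adjusted p = 4.3e-05). CREB3L1, an ATF6-like factor of secretory and collagen-producing cells, averaged 14.3 ± 1.38 and 24.1 ± 0.362 (-0.76, adjusted p = 8.2e-05), and its relative CREB3L2 fell by 0.25 on the log2 scale. MBTPS1, the site-1 protease that cleaves ATF6, was the gene that rose (0.21, adjusted p = 0.0062). DDIT3, also called CHOP, which is induced downstream of ATF4, was also lower, at 9.57 ± 0.453 and 10.7 ± 0.242 (-0.17, adjusted p = 0.033).

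Among the other ERAD factors, more genes were higher than lower. Of 26 tested, 9 were higher and 1, the mannosidase MAN1B1, was lower, and their median was 0.12 on the log2 scale (18 and 0 with values as deposited). ERLIN1, which recruits a ligase to ER membrane proteins, averaged 28.5 ± 0.370 scaled FPKM under phosphoramidon and 24.2 ± 0.342 in untreated cells (log2 fold change 0.23, adjusted p = 0.0015). EDEM3, a mannosidase that marks glycoproteins for removal, was higher by 0.28 (adjusted p = 0.0033), the conjugating enzyme UBE2G2 by 0.27 (0.0038) and the lectin OS9, a partner of SEL1L, by 0.24 (0.0054). For comparison, SEL1L was at 0.39. Of 33 other ER folding factors tested, 6 were higher and 7 lower (11 and 6 as deposited). Their lowest p-values belonged to FKBP10, its relatives FKBP14 (-0.46) and FKBP7 (-0.65), and the thioredoxin-like TMX4 (0.51).

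Of the genes of ER entry and exit that were called, most were lower, as SEC61B, OSTC and SEC24D were. Of 33 genes of the translocon, signal peptidase and oligosaccharyltransferase, 1 was higher and 13 were lower, with a median of -0.12, but with values as deposited the counts were 6 and 5. SSR3, of the translocon-associated complex, averaged 65.3 ± 1.57 scaled FPKM under phosphoramidon and 91.1 ± 1.06 in untreated cells (log2 fold change -0.48, adjusted p = 4.1e-05). SSR4 (-0.29) and SRPRA (-0.24), a subunit of the signal recognition particle receptor, were lower too, and MAGT1, an oxidoreductase of the oligosaccharyltransferase, was the gene that rose (0.29, adjusted p = 0.00041). Of 19 COPII coat and retrieval genes, 3 were higher and 11 lower, with a median of -0.15 (3 and 9 as deposited). KDELR2 and KDELR3, receptors that return escaped chaperones to the ER, had log2 fold changes of -0.38 (adjusted p = 0.00028) and -0.77 (0.00046). The coat subunits SEC13 and SEC31A followed at -0.53 and -0.29.

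In the cytosol, 3 of 27 other HSP70 and HSP90 cofactors were higher and 5 were lower (7 and 3 as deposited). CRYAB, a small heat shock protein like HSPB1, averaged 6.64 ± 0.484 scaled FPKM under phosphoramidon and 12.7 ± 0.422 in untreated cells (log2 fold change -0.93, adjusted p = 2.5e-05). FKBP5, an HSP90 co-chaperone, rose by 0.58 (adjusted p = 0.00019) and DNAJB6 by 0.33 (0.0014), while HSF1 itself was lower (-0.31, adjusted p = 0.0034). Of 14 genes of the chaperonin TRiC and prefoldin, which fold actin and tubulin, none was higher in limma or with voom and 6 were lower, with a median of -0.13 (1 and 1 as deposited). No gene of that list had a positive change at an unadjusted p below 0.05. The lowest p-values were those of CCT3 (-0.25), CCT6A (-0.15), CCT4 (-0.15) and PFDN6 (-0.22). Of 21 other mitochondrial chaperones and proteases, 2 were higher and 8 lower, with a median of -0.07 (3 and 5 as deposited). The matrix protease LONP1 fell to 21.5 ± 0.632 scaled FPKM under phosphoramidon, against 28.5 ± 1.11 in untreated cells (-0.41, adjusted p = 0.00026). PHB2 (-0.27) and the protease CLPP (-0.32) were lower too, and ATF5, a factor of the mitochondrial stress response, was higher (0.32, adjusted p = 0.0049).

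**Figure D5:**
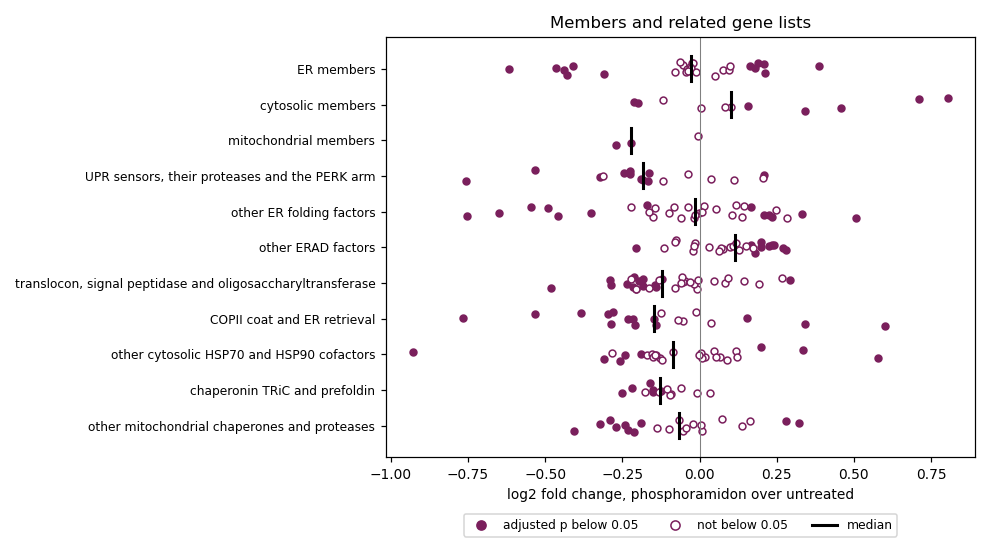
Log2 fold change, phosphoramidon over untreated, of the members by compartment and of 8 related lists; each circle is a gene, filled where it was called, and the bar is the median. The other ERAD factors have the highest median of the related lists (0.12), and the UPR sensor list has the lowest (-0.18).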

How the data were processed

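The deposited values are FPKM per gene and library. The submitters' processing notes list GRCh38 and, in no stated role, HISAT2 2.1.0, featureCounts 1.6.0, Trimmomatic 0.38, DESeq2 1.22.1, CASAVA, FastQC and MultiQC. For the annotation, strand setting and RNA selection, the sources used here give nothing. Members and lists were chosen with earlier results of these data known.

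The deposited FPKM were multiplied by GENCODE 29 exon lengths to recover whole fragments (tolerance 0.05). Of 34623 genes above 0, 79.15% were whole at that length, and for the rest a length was searched, so the total share is no check. TMM factors (30% of M and 5% of A values trimmed) came from these fragments. Genes with at least 10 fragments in at least 3 libraries were tested by limma 3.58.1 (R 4.3.3; trended, robust) on log2(FPKM divided by the factor + 0.1), with the group as the only term, two-sided, adjusted by Benjamini-Hochberg over all 16175 genes. Fold changes on that scale understate low genes. Names matched 37892 IDs, and gene coordinates are from GENCODE 29. Sequences are from RefSeq (GRCh38.p14).

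All members were named. Values per library were given for 12 fixed genes and for called members up to the 5 lowest p of a role group, and up to 4 called genes of lowest p were named per list; DDIT3 and MAN1B1 were added after values were seen. Alternatives were other scalings, pseudocount 1, other filters, voom on recovered fragments, a replicate term and leaving out each library. For the related lists and the HSPA1 sum these were added after the data were seen.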

Additional observations from a re-analysis of the deposited data

How the results depend on the processing

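Under 13 alternatives, members called numbered 16 to 23, against 21. With no filter on low genes, 7 members and 1379 genes were called higher, against 11 and 2288, with 34623 genes tested in place of 16175. With values as deposited, 3647 genes were called higher. For the related lists together, 25 genes were higher and 61 lower; with values as deposited 52 were higher and 33 lower, and with no filter 16 were higher. Leaving out 1 library gave 8 to 11 members higher and 9 or 10 lower. The summed HSPA1A and HSPA1B kept their call in all, at 0.61 to 0.71.

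Each sign that turned belonged to a gene that was not called, in both settings. With values as deposited the log2 fold changes were 0.066 for CALR, 0.0586 for CANX, 0.0411 for CRELD2, 0.0242 for DERL2, 0.0486 for EDEM1, 0.0344 for HSP90B1, 0.0644 for HSPA5, 0.0819 for HSPD1, 0.0596 for PDIA3, 0.0085 for PDIA6, 0.0457 for SDF2L1 and 0.0755 for SYVN1. With median-of-ratios factors HSPD1 was at 0.0039. When 1 library was left out, BAG3 ranged from -0.0443 to 0.0432, CALR from -0.0581 to 0.0164, CANX from -0.0493 to 0.0084, HSPA5 from -0.0545 to 0.0059, HSPD1 from -0.0307 to 0.0241, PDIA3 from -0.0582 to 0.0297, SYVN1 from -0.0260 to 0.0065 and CRELD2 from -0.0776 to 0.0054. Calls lost were those of ATF6, HSPE1, DNAJC3, HSP90AA1, DNAJB1 and HSPB1, and the causes were not tested.

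Same-numbered libraries showed little shared deviation (r = 0.111, -0.021 and -0.011 over genes), and not every library correlated best with its own number. With 3 libraries in a group, this cannot show whether the libraries were set up as pairs. With a replicate block 20 members were called, 10 higher and 10 lower: ATF6 (adjusted p = 0.061) and HSPE1 (0.052) were not called, and HSP90AB1 was (0.046). A fragment on 1 kb was worth 0.0401 to 0.0535 FPKM, and each group had 3 libraries.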
